A study of Mus musculus with 12 samples.

Results

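The 9 genes described here mark endothelial tip cells, the migrating cells at the front of a growing vessel, and the neovascular tufts of a diseased retina. Their Ensembl identifiers are ENSMUSG00000042379 (Esm1), ENSMUSG00000037010 (Apln), ENSMUSG00000044338 (Aplnr), ENSMUSG00000027314 (Dll4), ENSMUSG00000045382 (Cxcr4), ENSMUSG00000020099 (Unc5b), ENSMUSG00000035165 (Kcne3), ENSMUSG00000046223 (Plaur) and ENSMUSG00000000489 (Pdgfb). They were taken as a list of names, chosen with earlier results of these data known. Shares of all genes set beside theirs therefore describe the data and are not independent support. Each symbol was matched to 1 row of the table, and the list makes up 9 of its 36131 genes. All 9 passed the filter on low counts that left 16489 genes with 12 animals and 16688 without animal 10. RNA of the whole retina was sequenced at postnatal day (P) 18 from 12 C57BL/6J wildtype mice, 4 in each of 3 groups, in an oxygen-induced retinopathy (OIR) experiment. RA-PBS mice (animals 1 to 4) stayed in room air (RA) and received phosphate-buffered saline (PBS) as placebo. O2-PBS mice (animals 5 to 8) breathed 75% O2 from P7, returned to room air by P12 and received PBS. O2-IC100 mice (animals 9 to 12) had the same oxygen exposure and received IC100, a humanized monoclonal antibody against the inflammasome adaptor ASC, at 10 µg/g into the peritoneum on P12, P14 and P16. The labels place the PBS injections in the peritoneum too, whereas the study's text describes placebo as given into the vitreous, so the route of the placebo is uncertain.

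In OIR, high oxygen halts and prunes the vessels of the newborn retina, and on return to room air the hypoxic tissue releases VEGF. Vessels then sprout again, and some form tufts that grow out of the retina toward the vitreous. At each sprout VEGF selects a tip cell, which extends filopodia and guides the stalk cells behind it. A tip cell makes the Notch ligand Dll4, which keeps its neighbours from becoming tip cells, and Pdgfb, which draws pericytes onto the new vessel. Esm1 (endocan) is a secreted proteoglycan, Apln is the peptide ligand of the receptor Aplnr, Cxcr4 is the receptor of the chemokine Cxcl12, and Unc5b is a netrin receptor. Kcne3 is an accessory subunit of voltage-gated potassium channels, and Plaur is the receptor that holds urokinase at the cell surface. Some of these transcripts are not particular to endothelium: Cxcr4 and Plaur are also made by leukocytes and Unc5b by neurons.

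The promoters of the 5 genes that rose in O2-PBS with all 12 animals in the fit are shown first, because the regrowth of vessels in this model starts in a hypoxic retina. They are RefSeq sequences of the GRCm38.p6 build, reach from 250 bases before to 50 bases after the transcription start and are printed 5′ to 3′ on the gene's own strand. The counts were made on GRCm39, so these positions are not those of the counting. Capitals mark the core of the hypoxia response element, the letters ACGTG or GCGTG on either strand.
Esm1, chr13:113209409-113209708, plus strand: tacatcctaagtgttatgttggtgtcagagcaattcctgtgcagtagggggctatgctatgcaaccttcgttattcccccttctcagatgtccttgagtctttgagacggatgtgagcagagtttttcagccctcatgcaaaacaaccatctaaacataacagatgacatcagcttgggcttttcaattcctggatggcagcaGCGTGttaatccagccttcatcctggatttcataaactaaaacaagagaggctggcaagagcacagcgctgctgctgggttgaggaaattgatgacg
Apln, chrX:48034804-48035103, minus strand: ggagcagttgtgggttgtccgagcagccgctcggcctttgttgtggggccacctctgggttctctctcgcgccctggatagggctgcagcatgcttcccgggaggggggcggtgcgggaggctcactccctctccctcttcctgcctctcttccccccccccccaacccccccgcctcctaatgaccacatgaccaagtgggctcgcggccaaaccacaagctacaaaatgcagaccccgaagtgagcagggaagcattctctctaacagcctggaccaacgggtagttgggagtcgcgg
Cxcr4, chr1:128592250-128592549, minus strand: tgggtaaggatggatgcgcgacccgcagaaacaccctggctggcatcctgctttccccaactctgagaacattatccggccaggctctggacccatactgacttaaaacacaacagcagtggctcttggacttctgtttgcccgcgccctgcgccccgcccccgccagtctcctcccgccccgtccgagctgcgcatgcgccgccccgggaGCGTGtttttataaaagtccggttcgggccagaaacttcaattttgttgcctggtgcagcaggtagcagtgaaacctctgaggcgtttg
Unc5b, chr10:60831532-60831831, minus strand: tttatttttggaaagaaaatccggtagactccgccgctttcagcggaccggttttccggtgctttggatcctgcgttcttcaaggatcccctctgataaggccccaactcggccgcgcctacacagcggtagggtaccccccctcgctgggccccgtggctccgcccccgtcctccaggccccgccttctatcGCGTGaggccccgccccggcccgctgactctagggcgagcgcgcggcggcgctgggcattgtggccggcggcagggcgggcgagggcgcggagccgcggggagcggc
Kcne3, second of 2 start sites, chr7:100178433-100178732, plus strand: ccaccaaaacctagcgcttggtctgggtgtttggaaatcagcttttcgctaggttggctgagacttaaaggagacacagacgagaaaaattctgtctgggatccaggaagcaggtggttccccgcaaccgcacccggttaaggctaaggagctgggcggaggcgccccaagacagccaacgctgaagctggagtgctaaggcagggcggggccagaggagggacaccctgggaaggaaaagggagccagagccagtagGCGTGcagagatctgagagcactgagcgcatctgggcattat

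In these windows GCGTG began 47 bases before the start of Esm1, 39 before that of Cxcr4, 57 before that of Unc5b, and at base 9 from the start of Kcne3, while the Apln window held neither form. Promoters were found for 7 of the 9 genes, 8 windows in all because Kcne3 has 2 start sites, and not for Aplnr and Pdgfb. The other Kcne3 window held ACGTG, Dll4 held GCGTG on the opposite strand 195 bases before its start, and Plaur held neither. In all, 6 of the 8 windows held a hypoxia response element core, compared with 43.8% of all 32851 promoter windows of this length. GCGTG alone occurred in 32.4% of all windows and ACGTG in 19.6%. TGGGAA, the core bound by the Notch effector RBPJ, was present in 1 of the 8 (Kcne3, second start) and in 25.6% of all windows. CCGGAA, an ETS core, was present in Unc5b only, compared with 14.9% of all windows, and TATAAA in Cxcr4 only, compared with 13.6%. CAGCTG, an E-box, was in none of the 8 and in 16.3% of all windows. All motifs were searched on both strands, and TATAAA in Cxcr4 was matched on both strands at overlapping bases. A match describes the letters and does not show that a factor binds there.

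Total counts were 14907143 to 24438082 per retina. O2-IC100 animal 10 stood apart: lens genes took 59.5% of its counts and rod photoreceptor genes 0.351%, whereas in the other 11 animals lens genes took 0.00388% to 4.6% and rod genes 4.12% to 5.12%. Among the RA-PBS animals, numbers 2, 3 and 4 carried lens RNA (1.27%, 4.6% and 1.44%) and animal 1 almost none (0.00394%). Values are therefore given with all 12 animals and without animal 10. All 16 pan-endothelial marker genes passed the filter in these retinas, and their summed level was 264 ± 20.1 normalized CPM (counts scaled to a common library size) in RA-PBS and 456 ± 66.2 in O2-PBS (SD, n = 4 each). In O2-IC100 it was 309 ± 26.2 (SD, n = 3 without animal 10, which had 76.7). RNA of bulk tissue cannot tell a larger number of endothelial cells from more RNA per cell. A gene is here said to have been called, and to have risen or fallen, when it changed 1.5-fold or more and edgeR's quasi-likelihood test gave p below 0.05 and, adjusted over all tested genes by the method of Benjamini and Hochberg, below 0.1.

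To see how strongly the tip cell genes responded to oxygen, O2-PBS was first compared with RA-PBS. All 9 genes were higher in every O2-PBS retina than in any RA-PBS retina, as were 7.81% of all tested genes. With all 12 animals in the fit 5 of the 9 rose (Esm1, Apln, Cxcr4, Unc5b and Kcne3), compared with 0.782% of all tested genes. Without animal 10 all 9 rose, compared with 4.09% of all genes. The count with 1 other animal left out was 2 without animal 2, 4 or 5, 3 without animal 7 or 8, and 4 or 5 without any other. These leave-out fits called 30 to 109 of all tested genes higher. None of the 9 fell with 12 animals or without animal 10, where 0.0243% and 2.18% of all genes did. The median log2 fold change of the 9 was 1.66 in both fits, and that of all genes was -0.01. DESeq2 called 8 of the 9 with 12 animals, missing Dll4 (adjusted p = 0.119), and 9 without animal 10, compared with 2.02% and 4.27% of all genes to which it gave an adjusted p-value.

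Esm1, the proteoglycan, went from almost nothing to a clear signal. Its expected counts in RA-PBS animals 1 to 4 were 0, 2.01, 5 and 3, and in O2-PBS animals 5 to 8 they were 185, 107, 150 and 175. In normalized CPM it was 0, 0.097, 0.278 and 0.158 in RA-PBS, and 11.2, 5.58, 8.48 and 9.7 in O2-PBS. The lowest O2-PBS retina was thus far above the highest RA-PBS retina. The log2 fold change was 5.97 ± 0.80 (SE; adjusted p = 0.00998, and 1.14e-05 without animal 10, both from edgeR). Because the RA-PBS counts were at or near the 3 counts taken as the floor of detection, the size of this ratio is less certain than its direction.

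Apln and its receptor Aplnr were both higher after oxygen, the ligand by more. Apln was at 6.79, 4.35, 9.33 and 9.27 CPM in RA-PBS and at 103, 43.1, 61.2 and 82.2 CPM in O2-PBS. These groups did not overlap, and the spread within O2-PBS was wide. Its log2 fold change was 3.28 ± 0.60 (adjusted p = 0.0437, edgeR), and 3.29 ± 0.30 without animal 10 (adjusted p = 0.000103). Aplnr was at 6, 3.57, 6.99 and 4.42 CPM in RA-PBS and at 13.2, 14.6, 12.9 and 17.7 CPM in O2-PBS, without overlap. Its log2 fold change of 1.48 ± 0.46 was not called with 12 animals (adjusted p = 0.311, edgeR) and was called without animal 10 (1.48 ± 0.19, adjusted p = 0.000427). The difference between the changes of ligand and receptor was not tested.

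Dll4, the Notch ligand of the tip cell, was at 1.96, 2.8, 5.77 and 3.21 CPM in RA-PBS and at 12.4, 9.75, 8.82 and 10.3 CPM in O2-PBS. RA-PBS animal 3 was the closest to the O2-PBS range, and no values overlapped. The log2 fold change was 1.58 ± 0.57 with 12 animals (adjusted p = 0.454, edgeR) and 1.58 ± 0.27 without animal 10 (adjusted p = 0.00317). Pdgfb, the growth factor for pericytes, lay between 3.82 and 7.99 CPM in RA-PBS (median 6.59) and between 13.2 and 25.3 CPM in O2-PBS. It too was called only without animal 10 (log2 fold change 1.56 ± 0.24, adjusted p = 0.00164; with 12 animals 1.56 ± 0.40 and adjusted p = 0.164).

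The chemokine receptor Cxcr4 had the least scatter in O2-PBS relative to its mean among the genes that rose with all 12 animals. It was at 2.74, 1.5, 2.61 and 2.53 CPM in RA-PBS and at 8.92, 8.81, 8.09 and 10.2 CPM in O2-PBS, a log2 fold change of 1.94 ± 0.29 (adjusted p = 0.0191, edgeR). The netrin receptor Unc5b was at 9.65, 15.2, 16.9 and 16.9 CPM in RA-PBS and at 34.2, 32.3, 26.6 and 34.4 CPM in O2-PBS. Neither gene overlapped between the groups, and Unc5b had the smallest change of the 9, a log2 fold change of 1.12 ± 0.21 (adjusted p = 0.0469). Kcne3, the channel subunit, had 0, 1, 4 and 2 expected counts in RA-PBS and 24, 12, 22 and 16 in O2-PBS. That is 0.0939 ± 0.0956 CPM against 1.05 ± 0.366 CPM (SD, n = 4 each), and the log2 fold change was 3.40 ± 0.58 (adjusted p = 0.0321, edgeR). As with Esm1, its RA-PBS counts were near the floor. Plaur, the urokinase receptor, was also scarce, at 0.353 to 0.581 CPM in RA-PBS and 1.23 to 1.61 CPM in O2-PBS, and was called only without animal 10 (log2 fold change 1.66 ± 0.42, adjusted p = 0.0256; with 12 animals adjusted p = 0.153).

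**Figure D1:**
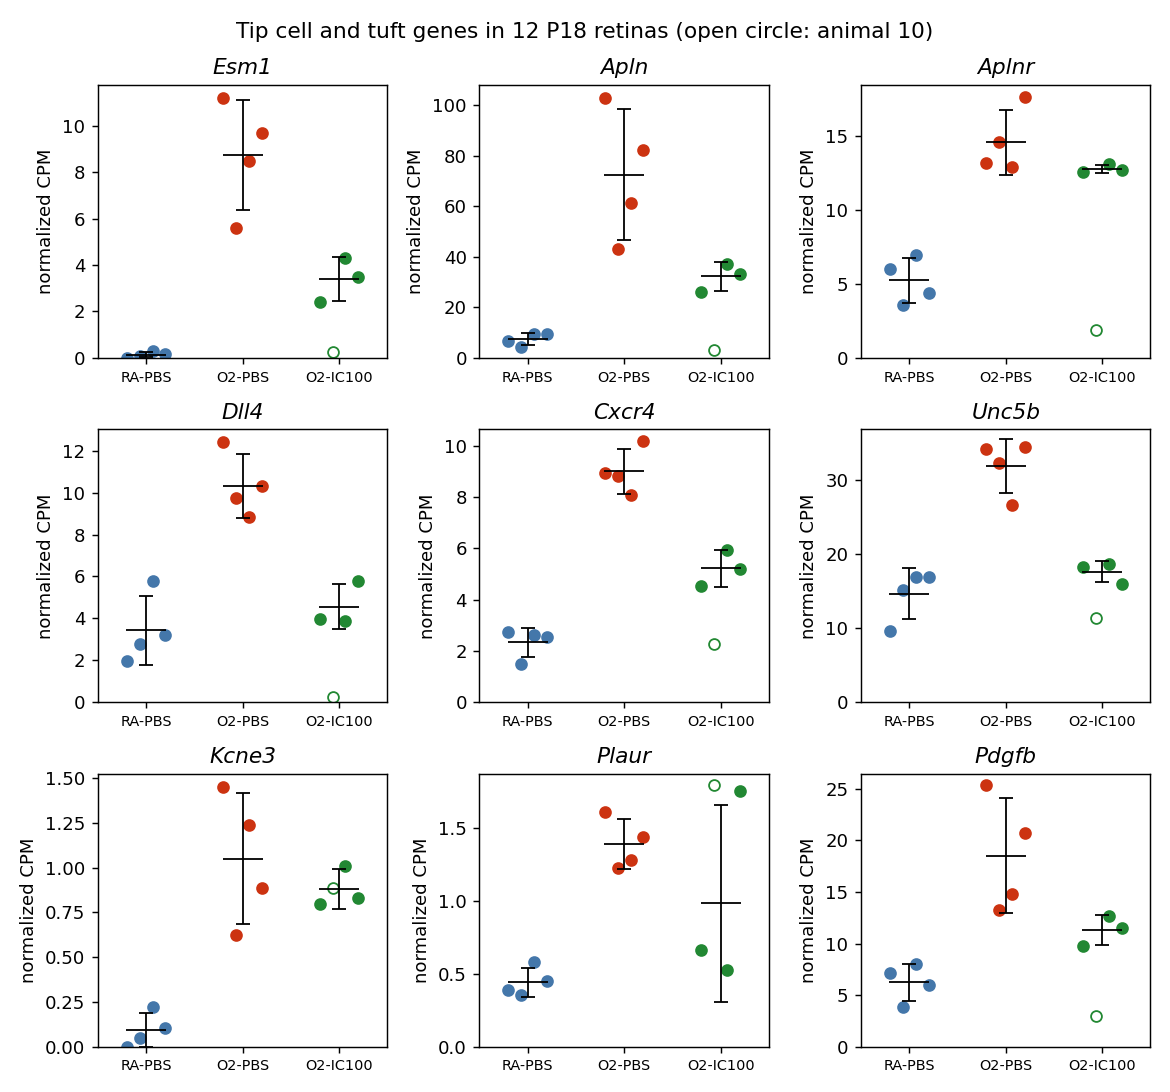
Normalized CPM (vertical axes, each from 0) of the 9 tip cell and tuft genes in each of 12 retinas, 1 circle per animal; horizontal lines and bars are mean ± SD without animal 10, which is the open circle. Every O2-PBS circle lies above every RA-PBS circle in all 9 panels, and O2-IC100 animals 9, 11 and 12 lie below all O2-PBS circles in 6 panels.

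RA-PBS animal 1, the one room air retina with almost no lens RNA, had the lowest Esm1, Dll4, Unc5b and Kcne3 of its group and the highest Cxcr4. The labels do not give the sex of the animals. Summed levels of 4 Y-linked genes were over 100 CPM in RA-PBS animals 1, 2 and 3 and in O2-PBS animal 8, and under 10 CPM in RA-PBS animal 4 and O2-PBS animals 5, 6 and 7. Within each of these sets all 9 genes were higher in O2-PBS, which had to follow because no value overlapped between the whole groups. It adds no separate support, and each set has a single animal on one side. The share of all tested genes was 38.4% for animals 5, 6 and 7 above animal 4. It was 23.9% for animal 8 above animals 1, 2 and 3. The ratio of means was 1.83 to 53.2 for animals 5, 6 and 7 over animal 4, and 2.47 to 77.7 for animal 8 over animals 1, 2 and 3.

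Levels of different genes were compared per kilobase of exon. In O2-PBS Apln was the most abundant at 23.0 ± 8.23 CPM per kb (SD, n = 4), above all the others without overlap. Unc5b (5.09 ± 0.582), Cxcr4 (4.98 ± 0.485), Pdgfb (4.45 ± 1.34), Esm1 (4.17 ± 1.14) and Aplnr (3.95 ± 0.594) followed, and each neighbouring pair overlapped. Dll4 came next at 2.68 ± 0.394 CPM per kb, below every Aplnr value. Its highest value, 3.22, was above the lowest of Esm1 (2.66) and of Pdgfb (3.17). Kcne3 (0.591 ± 0.206) and Plaur (0.531 ± 0.0657) were lowest and overlapped each other. In RA-PBS, Apln (2.36 ± 0.754 CPM per kb) and Unc5b (2.34 ± 0.549) had the highest means and overlapped. The lowest Apln value, 1.38, was also under the highest values of Aplnr, Pdgfb, Cxcr4 and Dll4. At the bottom, Esm1 (0.0635 ± 0.0555) and Kcne3 (0.0527 ± 0.0537) overlapped. Esm1 was thus below Plaur (0.17 ± 0.038 CPM per kb) in room air and above it in O2-PBS.

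The summed CPM of the 16 pan-endothelial genes was 1.72 times higher in O2-PBS, and the median of the 16 was 2.43 times higher. Each gene was therefore also expressed as a percentage of that sum. For 7 of the 9 genes this ratio was higher in all O2-PBS than in all RA-PBS retinas, compared with 0.916% of all tested genes, and the exceptions were Dll4 and Unc5b. Because the panel itself rose, dividing by it lowers the ratio of every gene that did not, and with it the share of all genes. In CPM that share was 7.81%. Within the panel Cdh5 rose 3.19-fold and Flt1 differed 1.12-fold (edgeR, 12 animals), so a higher ratio is not particular to the 9 genes. Esm1 was at 0.0502% ± 0.0421 of the panel in RA-PBS and at 1.9% ± 0.366 in O2-PBS (SD, n = 4 each), a ratio of means of 37.8. Apln was at 2.84% ± 1.00 and 15.6% ± 3.84, a ratio of 5.48. Kcne3 differed by a ratio of 6.56 and Cxcr4 by 2.23, and the other 5 genes by 1.26 to 1.82. Dll4 was at 0.735% to 2.04% of the panel in RA-PBS and 2% to 2.42% in O2-PBS, so the ranges just met. Unc5b, at 3.61% to 7.18% and 6.66% to 8.02%, had the smallest ratio of the 9, 1.26. Divided by the median of the panel in place of its sum, Unc5b had a ratio of 0.89, and 5 of the 9 genes (Esm1, Apln, Cxcr4, Kcne3 and Plaur) were higher in all O2-PBS than in all RA-PBS retinas. These ratios were not tested, and the percentages compare a gene with itself across animals, not genes with each other.

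**Figure D2:**
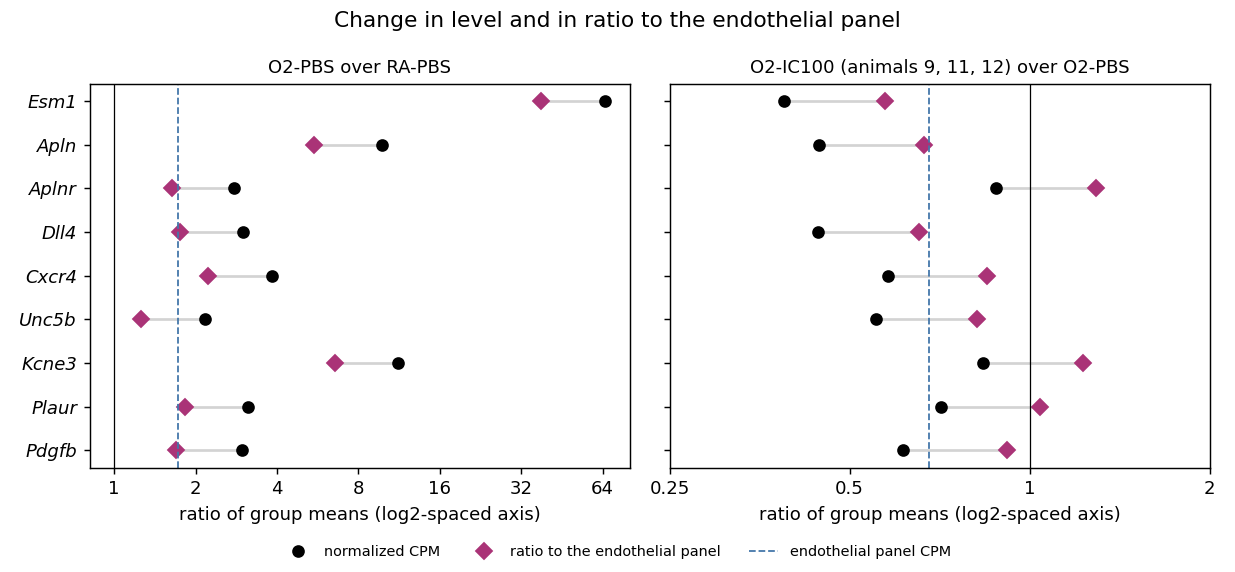
Ratio of group means (horizontal axes, log2-spaced) of the normalized CPM (circles) and of the percentage of the endothelial panel (diamonds) for the 9 genes, in O2-PBS over RA-PBS (left) and in O2-IC100 without animal 10 over O2-PBS (right); the dashed line is the panel itself, at 1.72 and 0.678. On the left the diamonds run from 1.26 for Unc5b to 37.8 for Esm1, and on the right from 0.572 for Esm1 to 1.29 for Aplnr.

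The effect of the antibody on the same genes was examined by comparing O2-IC100 with O2-PBS. With all 12 animals edgeR called none of the 9 lower, and 0 of all 16489 genes either lower or higher, although 6 of the 9 had an unadjusted p-value under 0.05, as did 2784 of all genes. DESeq2 on the same animals called 2 of the 9 lower (Cxcr4 and Unc5b), and 84 genes lower in all (0.483%), and limma voom called 0 of the 9. Without animal 10, Esm1 and Unc5b fell, 2 of 9 compared with 0.731% of all tested genes. None of the 9 was called higher, which 0.216% of all genes were. The median log2 fold change of the 9 was -0.99 with 12 animals and -0.77 without animal 10, and that of all genes was 0. In O2-IC100 animals 9, 11 and 12, 6 of the 9 genes were below all 4 O2-PBS retinas, compared with 17.4% of all tested genes. The exceptions were Aplnr, Kcne3 and Plaur.

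Esm1 was at 2.4, 4.32 and 3.47 CPM in O2-IC100 animals 9, 11 and 12, all below the lowest O2-PBS value of 5.58. Lens-rich animal 10 was at 0.252 CPM, which rests on 2 expected counts, under the floor of 3 counts. The mean without animal 10 was 61.1% under that of O2-PBS, and the log2 fold change was -1.34 ± 0.33 (adjusted p = 0.0997, edgeR), just inside the threshold of 0.1. With 12 animals it was -1.70 ± 0.60 (adjusted p = 0.287). Unc5b was at 18.3, 18.6 and 16 CPM in animals 9, 11 and 12 and at 11.4 CPM in animal 10, against at least 26.6 in O2-PBS. Its log2 fold change was -0.84 ± 0.17 without animal 10 (adjusted p = 0.0528) and -0.99 ± 0.21 with all animals (adjusted p = 0.287, edgeR).

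Just outside the threshold without animal 10 were Dll4, Cxcr4 and Apln. Dll4 was at 3.99, 3.89 and 5.79 CPM in animals 9, 11 and 12, all below the O2-PBS minimum of 8.82, and those of animals 9 and 11 lay within the RA-PBS range of 1.96 to 5.77. Its log2 fold change was -1.16 ± 0.29 (adjusted p = 0.101, edgeR). Animal 10 had 0.252 CPM of Dll4, from 2 expected counts, under the floor of 3 counts. Cxcr4 was at 4.52, 5.95 and 5.2 CPM and at 2.27 CPM in animal 10 (log2 fold change -0.77 ± 0.20 without animal 10, adjusted p = 0.111). Apln was at 26.1, 37.3 and 33.3 CPM and at 3.03 CPM in animal 10, for a log2 fold change of -1.15 ± 0.29 (adjusted p = 0.114, edgeR, without animal 10). All 3 genes were called lower without animal 10 by DESeq2 (adjusted p = 0.00614, 0.00995 and 0.00217), and Dll4 and Cxcr4 also by limma voom (adjusted p = 0.066 and 0.0861). Pdgfb was lower as well, at 9.74, 12.7 and 11.5 CPM against at least 13.2 in O2-PBS, and was not called by edgeR (log2 fold change -0.69 ± 0.25, adjusted p = 0.191). DESeq2 without animal 10 called it lower (adjusted p = 0.0901), and 6 of the 9 in all. It gave Kcne3 and Plaur no adjusted p-value, so neither could be called. Of all genes to which it gave an adjusted p-value, it called 2.09% lower.

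Aplnr, Kcne3 and Plaur were not called in this comparison, and none of the 3 lay below O2-PBS in all of animals 9, 11 and 12. Aplnr was at 12.6, 13.1 and 12.7 CPM in animals 9, 11 and 12, against 12.9 to 17.7 in O2-PBS, and its log2 fold change was -0.17 ± 0.19 (adjusted p = 0.63, edgeR, without animal 10). Its ligand Apln averaged 55.5% less than in O2-PBS and Aplnr itself 12.2% less. Kcne3 was at 0.799, 1.01 and 0.833 CPM, inside the O2-PBS range of 0.626 to 1.45, with -0.23 ± 0.49 as its log2 fold change (adjusted p = 0.813). Plaur scattered, at 0.668, 0.528 and 1.76 CPM in animals 9, 11 and 12 and 1.8 CPM in animal 10, both below and above the O2-PBS range. Its log2 fold change of -0.48 ± 0.42 was smaller than 2 standard errors (adjusted p = 0.528, edgeR).

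Plaur is also a myeloid gene, and the 14 microglia and macrophage genes summed to 454 CPM in animal 10. Their level was 85.5 ± 9.03 CPM in O2-PBS (SD, n = 4) and 88.2, 106 and 108 CPM in animals 9, 11 and 12. Plaur in those animals was at 0.668, 0.528 and 1.76 CPM, which rest on 12.5, 11 and 36 expected counts. Of the 14 genes, 0 were called lower or higher in O2-IC100 than in O2-PBS by edgeR in either fit, and at an unadjusted p-value under 0.05 there were 4 higher with 12 animals, and 1 higher and 1 lower without animal 10. Whether myeloid RNA contributed to the Plaur values was not tested.

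The Y-linked genes also divided the groups of this comparison, at over 100 CPM in O2-IC100 animals 9, 11 and 12, which were 3 of the 3 left without animal 10, and in 1 of 4 O2-PBS animals. Against that animal, number 8, 7 of the 9 genes were lower in all of animals 9, 11 and 12, compared with 32.1% of all tested genes, and the exceptions were Kcne3 and Plaur. For all of the 7 but Aplnr this had to follow, because they were below all 4 O2-PBS retinas. Animal 8 is also a single retina, with the highest Aplnr, Cxcr4 and Unc5b of its group. The ratios of means ran from 0.35 for Esm1 to 0.992 for Kcne3, with a median of 0.513. With the Y-linked level as a covariate and without animal 10, edgeR called none of the 9 lower, and 0.168% of all tested genes. The adjusted p-values were then 0.119 for Unc5b, 0.132 for Dll4, and 0.135 for Esm1 and for Cxcr4. With the same covariate and all 12 animals it called 7, compared with 8.08% of all tested genes. Animal 10 was the only O2-IC100 animal with a low Y-linked level (4.06 CPM), so there the covariate also followed the lens-rich retina. That fit called 2126 of all genes higher and 1332 lower, where the fit without a covariate called 0, so its 7 calls cannot be read as adjusted for the Y-linked level alone.

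The endothelial panel itself averaged 32.2% less in O2-IC100 than in O2-PBS without animal 10. Relative to it, 7 of the 9 genes lay closer to O2-PBS than in CPM, while Aplnr and Kcne3 went from below O2-PBS to further above it. Only Esm1, Dll4 and Unc5b had a lower ratio in all of animals 9, 11 and 12 than in all O2-PBS animals, 3 of 9 compared with 0.788% of all tested genes. Because the panel was lower, dividing by it raises the ratio of every gene that was not, and this lowers the share of all genes. In CPM that share was 17.4%. Panel genes differed from their sum as well: Robo4 averaged 16.3 CPM in O2-PBS and 6.2 CPM in animals 9, 11 and 12, and Cldn5 48.6 and 48.7 CPM. Esm1 was at 0.857%, 1.31% and 1.09% of the panel in those animals against 1.38% to 2.17% in O2-PBS, a ratio of means of 0.572. Dll4 was at 1.43%, 1.18% and 1.82% against at least 2%, a ratio of 0.652, and Unc5b was at 6.54%, 5.63% and 5.04% against at least 6.66%, a ratio of 0.815. Apln, at 9.35%, 11.3% and 10.5%, overlapped the lowest O2-PBS value of 10.7%. Aplnr went the other way, at 4.51%, 3.97% and 4.02% of the panel against 2.57% to 3.62% in O2-PBS, a ratio of 1.29, and Kcne3 had a ratio of 1.23 against 0.837 in CPM.

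**Figure D3:**
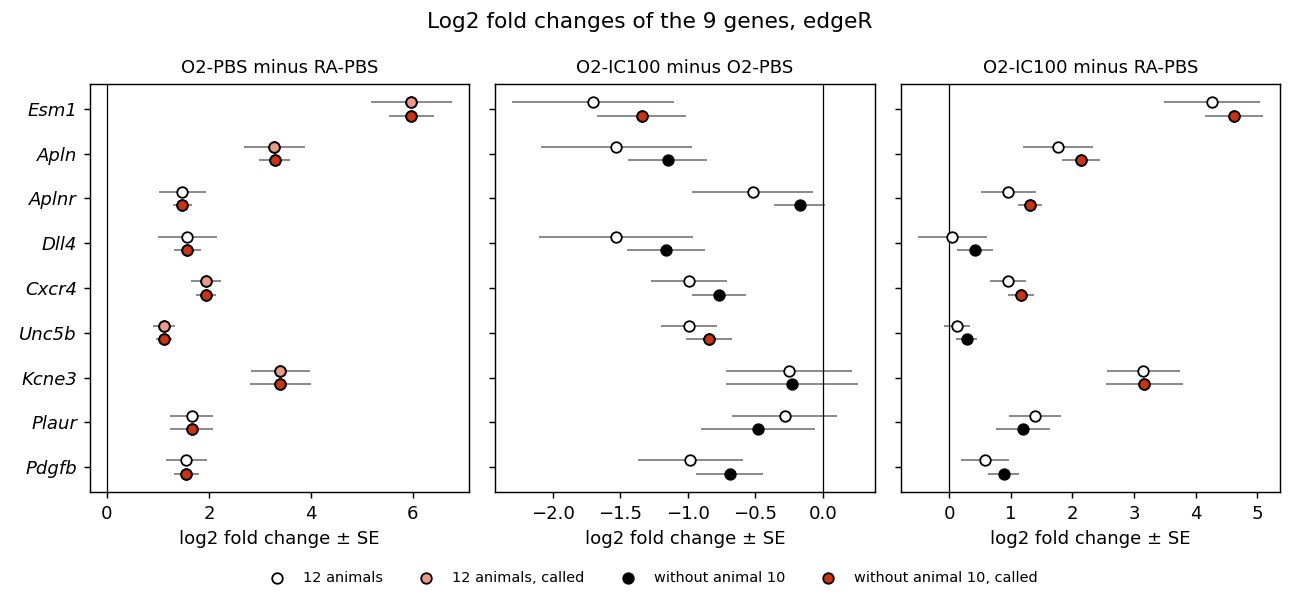
Log2 fold change ± SE from edgeR (horizontal axes) of the 9 genes in the 3 comparisons, with 12 animals (upper mark of each pair) and without animal 10 (lower mark); coloured marks passed all 3 thresholds. In the left panel 5 and 9 genes are coloured, in the middle panel 0 and 2, and in the right panel 0 and 5.

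How much of the oxygen response was still present under IC100 was described by comparing O2-IC100 with RA-PBS. This comparison shares its O2-IC100 animals with the previous one and its RA-PBS animals with the first, and those 2 share the O2-PBS animals, so the 3 sets of values are not independent. With 12 animals edgeR called none of the 9 higher, and 0 of all genes, of which 2183 had an unadjusted p-value under 0.05. DESeq2 called 4 of the 9 on the same animals, compared with 1.22% of all its genes, and 5 of the 9 had an unadjusted p-value under 0.05 in edgeR. Without animal 10, 5 of the 9 were higher (Esm1, Apln, Aplnr, Cxcr4 and Kcne3), compared with 0.947% of all tested genes. In animals 9, 11 and 12, 6 of the 9 were above all RA-PBS retinas (all but Dll4, Unc5b and Plaur), compared with 5.18% of all tested genes. Relative to the endothelial panel 6 of the 9 were above all RA-PBS retinas, with the same exceptions, compared with 1.41% of all tested genes. The panel averaged 1.17 times its RA-PBS level without animal 10, so dividing by it also lowers this share of all genes.

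Without animal 10, the log2 fold change of Esm1 from RA-PBS was 5.97 in O2-PBS and 4.63 ± 0.47 in O2-IC100 (adjusted p = 0.00135, edgeR). Apln stood at 3.29 in O2-PBS and 2.14 ± 0.31 in O2-IC100 (adjusted p = 0.0147), and Cxcr4 at 1.94 and 1.17 ± 0.21 (adjusted p = 0.0262). Kcne3 and Aplnr were nearest to their O2-PBS values, at 3.40 and 3.17 ± 0.63 for Kcne3 (adjusted p = 0.0415) and 1.48 and 1.31 ± 0.20 for Aplnr (adjusted p = 0.014, edgeR). Dll4 and Unc5b were nearest to room air. Dll4 stood at 1.58 in O2-PBS and 0.42 ± 0.29 in O2-IC100 (adjusted p = 0.516), and Unc5b at 1.12 and 0.28 ± 0.17 (adjusted p = 0.454, edgeR). With all 12 animals the log2 fold change of Dll4 was 0.05 ± 0.56, and leaving out animal 1, 2, 9 or 12 put it at 0 or below.

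The genes that act with these 9 were examined next, from a list of 30 ligands, receptors, inhibitors and downstream genes, all of which passed the filter. In O2-PBS against RA-PBS 1 of the 30 rose with 12 animals (Serpine2, a protease inhibitor of the urokinase system) and 8 rose without animal 10, and none fell. Of all tested genes 0.782% and 4.09% rose in these fits, and 0.0243% and 2.18% fell. The median log2 fold change of the 30 was 0.15 against -0.01 for all genes. Among the genes called without animal 10 were Kcnq1 (1.80 ± 0.31), a potassium channel that Kcne3 can join, and Plau (1.63 ± 0.34), which encodes urokinase. Others were Robo4 (1.34 ± 0.20), an endothelial receptor that binds Unc5b, and Notch4 (0.96 ± 0.22), an endothelial Notch receptor. Pdgfrb, the pericyte receptor of Pdgfb, had 0.63 ± 0.20 (adjusted p = 0.0713, edgeR).

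Several direct partners were not called. Notch1, a receptor of Dll4, was at 41.6 ± 10.1 CPM in RA-PBS and 58 ± 11.0 in O2-PBS (SD, n = 4 each; log2 fold change 0.48, adjusted p = 0.0915 without animal 10, under the fold change required). Cxcl12, the ligand of Cxcr4, was at 18.9 ± 2.98 CPM in RA-PBS and 12.7 ± 0.50 in O2-PBS, and its log2 fold change of -0.58 ± 0.12 (adjusted p = 0.00952 without animal 10) also missed the fold change required. Ackr3, the other Cxcl12 receptor, had 0.49 ± 0.27 (adjusted p = 0.321), and the netrin Ntn1 had -0.12 ± 0.27 (adjusted p = 0.839, edgeR). Apela, the second ligand of Aplnr, had -0.27 ± 0.21 (adjusted p = 0.483), whereas Apln itself rose.

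In O2-IC100 against O2-PBS, edgeR called 0 of the 30 with 12 animals, and 2 were higher and 3 lower at an unadjusted p-value under 0.05. Without animal 10 Kcnq1 fell by 1.41 ± 0.33 on the log2 scale (adjusted p = 0.0929, edgeR) and Robo4 by 1.38 ± 0.22 (adjusted p = 0.0267), and none rose. Of all tested genes 0.731% fell and 0.216% rose in that fit. Of the 30, 6 were higher with 12 animals and lower without animal 10. Kcnq1 averaged 1.06 ± 0.203 CPM in RA-PBS, 3.73 ± 1.43 in O2-PBS (SD, n = 4 each) and 1.39 ± 0.352 in O2-IC100 (n = 3). Kcnq1 was thus called lower under IC100 without animal 10, while its possible partner Kcne3 was not called. Kcne3 rests on few counts, and the difference between the changes of these 2 genes was not tested. Plau was at 1.63 ± 0.374 CPM in O2-PBS and 0.65 ± 0.107 in O2-IC100 without animal 10 (log2 fold change -1.30 ± 0.36, adjusted p = 0.125). In O2-IC100 against RA-PBS without animal 10, Cxcl12 (-0.71 ± 0.13, adjusted p = 0.0304, edgeR), Ntn1 (-1.19 ± 0.31, adjusted p = 0.091) and the potassium channel Kcnc4 were lower, 3 of 30, compared with 0.617% of all tested genes.

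A further 19 genes known from tip cells were followed for comparison. In O2-PBS 5 of them rose with 12 animals (Adm, Angpt2, Cd34, Lxn and Nrp1) and 14 without animal 10, and none fell, with a median log2 fold change of 1.17. Of all tested genes 0.782% and 4.09% rose in these fits. Adm, the vasodilator peptide adrenomedullin, had 3.51 ± 0.30 without animal 10, and was at 0.961 ± 0.448 CPM in RA-PBS and 11 ± 3.00 in O2-PBS (SD, n = 4 each). Angpt2, the vessel-destabilizing angiopoietin, had 2.16 ± 0.24, Mcam 2.06 ± 0.23, Pgf, a ligand of the VEGF family, 1.92 ± 0.43, and Igfbp3 1.73 ± 0.22. In O2-IC100 against O2-PBS edgeR called 0 of the 19 with 12 animals, where 2 were higher and 7 lower at an unadjusted p-value under 0.05. Without animal 10, 6 fell, compared with 0.731% of all tested genes. The largest of the 6 were Igfbp3 (-1.32 ± 0.24), Angpt2 (-1.27 ± 0.26), Adm (-1.23 ± 0.28), Mcam (-1.22 ± 0.24) and Lamb1 (-1.03 ± 0.18), a laminin chain. The direction of this list under IC100 rested on animal 10. Its median log2 fold change was -0.03 with 12 animals and -0.91 without animal 10, and 7 of the 19 genes (Nid2, Fscn1, Sparc, Pgf, Col4a1, Col4a2 and Lamb1) were higher than in O2-PBS with 12 animals and lower without it. Lamb1, for example, had 0.48 ± 0.65 with 12 animals.

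Genes of the vessel wall were higher in O2-PBS as well. Of the 16 pan-endothelial genes 4 rose in O2-PBS with 12 animals and 12 without animal 10, at a median log2 fold change of 1.19, and 0 and 5 fell in O2-IC100 against O2-PBS. Of 10 pericyte and mural genes 1 and 8 rose in O2-PBS, at a median of 1.18, and 0 and 3 fell in O2-IC100. Of 14 microglia and macrophage genes 0 rose with 12 animals and 7 without animal 10, at a median of 0.99. Of all tested genes 0.782% rose in O2-PBS with 12 animals and 4.09% without animal 10. In O2-IC100 against O2-PBS 0% and 0.731% of all tested genes fell. Where edgeR called 0 with 12 animals, an unadjusted p-value under 0.05 was found for 9 pan-endothelial and 3 pericyte genes lower in O2-IC100 than in O2-PBS and for 4 microglia genes higher in O2-PBS. The summed level of the microglia genes was 38.1 to 71 CPM in RA-PBS and 77.2 to 98.1 CPM in O2-PBS, none of the 14 was at 0 in all animals of a group, and their part in the Cxcr4 and Plaur values was not tested. Robo4 is on both the partner and the pan-endothelial list, and Pdgfrb on both the partner and the pericyte list.

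**Figure D4:**
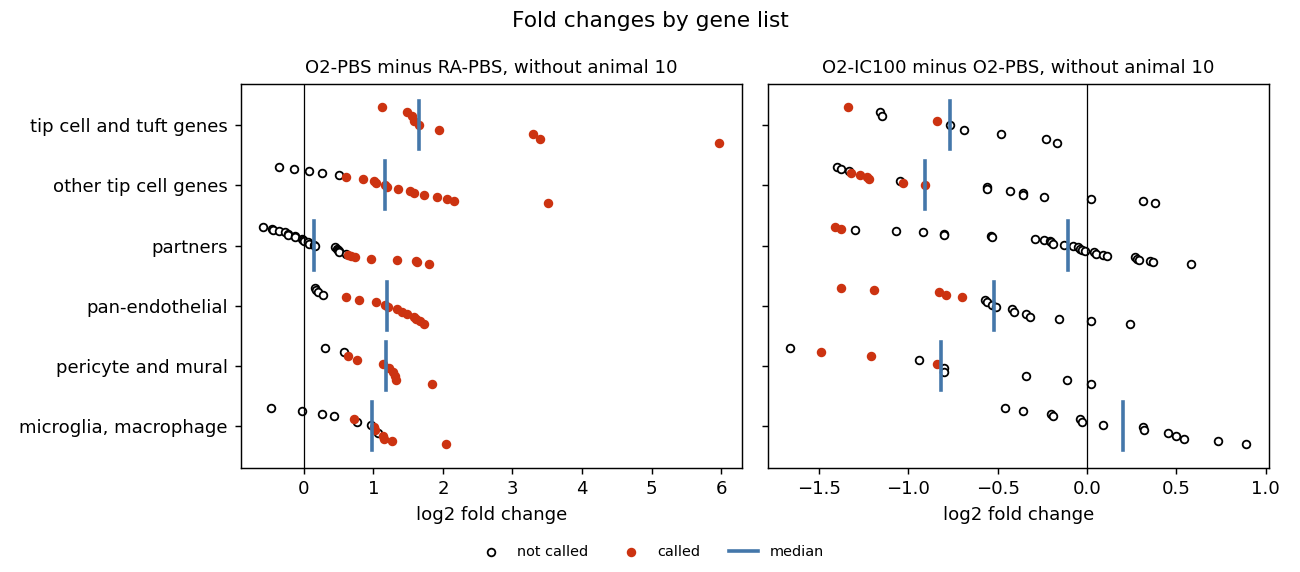
Log2 fold change (horizontal axes) of every tested gene of 6 lists, without animal 10, in O2-PBS minus RA-PBS (left) and O2-IC100 minus O2-PBS (right); filled circles passed all 3 thresholds and vertical bars are medians. On the left the median of the 9 tip cell and tuft genes is 1.66, that of the other tip cell genes 1.17 and that of the partners 0.15; on the right they are -0.77, -0.91 and -0.11.

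Genes outside the list with the profile most like the mean of the 9 were ranked by the mean absolute difference of log2 CPM scaled to mean 0 and SD 1 over the animals. Over 11 animals without animal 10 these were Lcp1 (0.11), a leukocyte actin-bundling protein, Pecam1 (0.116), the endothelial adhesion molecule CD31, Prnd (0.132), Mmrn2 (0.136), an endothelial matrix protein, and Fkbp10 (0.141). Over 12 animals they were Prnd (0.172), Antxr2 (0.18), Vegfa (0.181), Btc (0.19) and Pecam1 (0.191). Prnd and Pecam1 were on both lists. Prnd was at 1.45 ± 0.873 CPM in RA-PBS, 11.7 ± 1.99 in O2-PBS (SD, n = 4 each) and 5.78 ± 1.97 in O2-IC100 (n = 3). By the same measure over 11 animals the members themselves lay between 0.133 for Apln and 0.395 for Unc5b.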

How the data were processed

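RNA of 12 whole P18 retinas, each from a separate mouse, was sequenced by the authors as 150 bp paired-end reads, which they pseudoaligned to the GRCm39 release 104 transcriptome with Kallisto and summed per gene with tximport. The deposited table holds these expected counts per gene, not scaled to library size, of which 42.2% had a fractional part. Of 36131 rows, 35374 were given a symbol from a name table. Groups were taken from the labels.

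The values were rounded to integers, and edgeR 4.0.16 was run in R 4.3.3 (filterByExpr, TMM, robust quasi-likelihood F test, two-sided, 3 groups in 1 fit, Benjamini-Hochberg over all tested genes), once with 12 animals and once without animal 10. Thresholds were a fold change of 1.5, a p-value of 0.05 and an adjusted p-value of 0.1. Normalized CPM are counts scaled to the TMM library size, and 3 counts, the floor of detection, were 1.23e-05% to 2.01e-05% of a library, counting error only. Errors of CPM are SD and those of log2 fold changes are SE. The table was not strand-checked, and overlapping genes were not separated. Gene lengths (union of exons) and promoters were matched by identifier or symbol. The fit without animal 10 was tested on simulated data, with changes set only in genes above a mean of 1 CPM. The fit of 12 animals and changes in scarcer genes were not tested in this way.

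Alternatives were DESeq2 1.42.0, limma 3.58.1 voom, other scaling factors, no count filter, a fit that was not robust, fits of only the 2 groups compared, covariates for lens and for Y-linked genes, other endothelial panels, and leaving out each animal. Limma voom without animal 10 was added after seeing the data. The 9 genes and the gene lists were chosen with earlier results of these data known. Named with values were all 9 genes, the 5 largest called genes of the partner and other tip cell lists in each fit, fixed binding partners (Apela, Notch1, Cxcl12, Ackr3, Ntn1, Plau, Kcnq1 and Pdgfrb), and the 5 genes most like the 9 at a mean of at least 1 CPM. A gene of the partner list that this rule names is counted with its list but not reported here. Kcnc4 was named after its value was seen.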

Additional observations from a re-analysis of the deposited data

Results flagged for a closer look

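Across 57 sets of 4 animals (each of the 9 genes and the endothelial panel in each group, as CPM and, for the genes, as a percentage of the panel), 6 held a sample whose gap to the nearest other exceeded Dixon's critical value as a share of the range, and chance flags about 1 in 20 such sets. Of the 6, 4 concern O2-IC100 animal 10, the lens-rich retina. Aplnr was at 1.89 CPM there and at 12.6 to 13.1 CPM in the other O2-IC100 animals. As a percentage of the endothelial panel, animal 10 had 2.96% of Cxcr4 against 1.62% to 1.8%, 14.8% of Unc5b against 5.04% to 6.54%, and 1.15% of Kcne3 against 0.263% to 0.305%. The others were RA-PBS animal 2, at 1.5 CPM of Cxcr4 against 2.53 to 2.74 CPM, and O2-PBS animal 6, at 8.02% of the panel for Unc5b against 6.66% to 6.74%.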

How the results depend on the processing

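The number of the 9 genes called higher in O2-PBS than in RA-PBS was 5 with 12 animals. It was 8 with DESeq2, 9 with only those 2 groups in the fit, and 9 in every fit without animal 10 (animals 1 and 10 left out, DESeq2, RLE factors, no filter, Y-linked covariate, only 2 groups, voom). Among all genes the main fit called 129 higher, DESeq2 352 and the fit of only 2 groups 570. The fits without animal 10 called 535 to 763. Leaving out 1 animal gave 2 to 9: 2 without animal 2, 4 or 5, 3 without animal 7 or 8, and 9 without animal 10. The fits without animal 2, 4, 5, 7 or 8 called 30, 43, 36, 55 and 44 of all genes higher. That without animal 10 called 682. The number called lower in O2-IC100 than in O2-PBS was 0. It was 2 with DESeq2 and 7 with the Y-linked covariate, and without animal 10 it was 4 with animal 1 also left out, 6 with DESeq2, 4 with RLE factors, 3 without a filter, 6 with only 2 groups and 4 with voom. Among all genes DESeq2 called 84 lower and the fit with the Y-linked covariate 1332. Without animal 10 these numbers were, in the same order, 220, 313, 142, 122, 624 and 103 of all genes. Leaving out 1 animal gave 0 to 2. The number called higher in O2-IC100 than in RA-PBS was 0. It was 4 with DESeq2, 4 with the lens covariate and 1 with the Y-linked covariate, and without animal 10 it was 5 with animal 1 also left out, 6 with DESeq2, 5 with RLE factors, 5 without a filter, 5 with the Y-linked covariate, 2 with only 2 groups and 5 with voom. Among all genes DESeq2 called 212 higher, the lens covariate fit 1863 of 16489 and the Y-linked covariate fit 22. Without animal 10 these numbers were, in the same order, 166, 277, 155, 146, 214, 14 and 161 of all genes. Leaving out 1 animal gave 0 to 5. The number with a higher ratio to the endothelial panel stayed at 7 to 8 when 1 animal was left out, and was 6 or 5 with other panels. The cause of these shifts was not tested, beyond the animals left out by construction.

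Directions turned for few genes. For O2-IC100 against RA-PBS, Dll4 (0.05) was at -0.08 with voom, -0.41 with the lens covariate and -0.15 with the Y-linked covariate, and from -0.28 to 0.42 with 1 animal left out. Unc5b (0.13) ranged from -0.02 to 0.28 with 1 animal left out. For O2-IC100 against O2-PBS, Kcne3 (-0.25) was at 0.05 with the Y-linked covariate without animal 10. In that comparison Lamb1 (0.48) was at -0.35 with voom and -0.82 with the lens covariate, and it was -1.03 to 0.78 with 1 animal left out. Without animal 10 it was also -1.03 without animal 1, -1.04 with DESeq2, with RLE factors, without a filter and with only 2 groups, -1.24 with the Y-linked covariate and -1.01 with voom. For O2-PBS against RA-PBS, Ntn1 (-0.12) was at 0.70 with the lens covariate. No paired analysis was possible because the groups share no replicate numbers. Esm1 and Kcne3 in RA-PBS rest on counts of 5 or fewer, so depth limits the size of their fold changes.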
